A study of Homo sapiens with 24 samples.

Results

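OTX was compared with DMSO in the human acute myeloid leukaemia cell line IMS-M2 grown with folic acid. The comparison rests on 6 polyadenylated-RNA libraries of the 24 in the series, namely the 3 labelled OTX and the 3 labelled DMSO in the table of IMS-M2 with folic acid (+FA). All 6 came from cells with folic acid in the medium, and the labels give no dose and no duration for OTX. The abbreviation is taken here to mean birabresib (OTX015), an inhibitor of the bromodomain proteins of the BET family, from what is known of the study. IMS-M2 carries a mutant NPM1 and expresses HOX genes, as a background fact. A single line stands for the disease. Nothing in the labels tells whether the replicates were grown apart, so p-values measure only the spread between these samples, which may be technical. The series holds 8 groups of 3 libraries. Of the others, OTX against DMSO in IMS-M2 without folic acid (-FA) and in U937, a monocytic leukaemia line, with folic acid are used below for the differences only.

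BET proteins, BRD2 and BRD3 among them, bind acetylated histones with their bromodomains and help to recruit P-TEFb, the kinase of CDK9 and a cyclin T that releases paused RNA polymerase II. Genes near large enhancers, among them many that set the identity of blood cells, depend most on them in leukaemia cells. HEXIM1 holds P-TEFb in an inactive complex, and its transcript is a widely used readout of BET inhibition.

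Levels are in FPKM, which scales fragments by transcript length and by the mapped total of the library, as the authors deposited them for 23595 genes. A gene was tested when its mean reached 1 FPKM in at least 1 of the 2 groups, on log2(FPKM + 1) with limma across all 11097 such genes, and a call needed an adjusted p under 0.05 (Benjamini-Hochberg). The added 1 FPKM understates the change of low genes. FPKM are relative within a library, so a change in total RNA per cell cannot be seen, and in these bulk samples fewer cells of a type and less RNA per cell cannot be told apart. Sequencing depth is unknown. Of the 11097 tested genes, 2838 share their locus with another gene, so their reads may have been split. Among those named below, they include MAX, CCNE2, CDK4, PLK1 and FAS. Levels written with ± are means and SD over the 3 libraries of a group. FPKM sums ran from 557699 to 561101 in the OTX libraries and from 535707 to 613462 in the DMSO libraries. Of 12 markers of blood cells and myeloid blasts, 10 reached a mean of 1 FPKM in DMSO, while IL3RA was listed at 0 and FLT3 at 0.281, 0.357 and 0.366 FPKM in the DMSO libraries. All 10 markers of a HOX-expressing NPM1-mutant leukaemia reached it in both groups. None of 8 erythroid markers did, EPCAM, KRT19, CDH1, MS4A1 and PAX5 were listed at 0, KDR was at or near 0, and KRT18 was 66.3, 63.4 and 65.0 FPKM in the OTX libraries and 81.8, 82.6 and 83.9 FPKM in the DMSO libraries.

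One library stood apart. In DMSO replicate 1, 951 of the tested genes (8.57%) lay at least 0.5 on the log2 scale from the mean of the other two DMSO libraries, against 126 and 402 genes in DMSO replicates 2 and 3 and 75 to 95 genes in the OTX libraries. Some of the counts that depend on it are therefore given with and without it, and the others rest on all 6 libraries.

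With all 6 libraries, 6271 of 11097 genes (56.5%) were called, 2924 higher (26.3%) and 3347 lower (30.2%) under OTX. At a log2 change of at least 1 the calls leaned further to the lower side, with 301 genes higher (2.71%) and 882 lower (7.95%), and the median over all genes tested was -0.03. Without DMSO replicate 1, 3083 genes were higher and 3859 lower. The OTX and DMSO libraries did not overlap in 3394 genes on the higher side (30.6%) and 3748 on the lower side (33.8%). Of the tested genes, 189 averaged 1 FPKM or more only under OTX, and 138 of these were called higher. Another 624 did so only in DMSO, and 548 of these were called lower. Such genes entered through the group in which they are high, so counts of lists that hold many of them are also given for members with a mean of at least 1 FPKM over all 6 libraries. Over all genes that mean kept 10821, of which 26.6% were higher and 29.3% lower. Counts of gene lists below are to be read against 26.3% higher and 30.2% lower, also where no share is repeated. So many of all genes passed the test that a bare count says little.

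**Figure D1:**
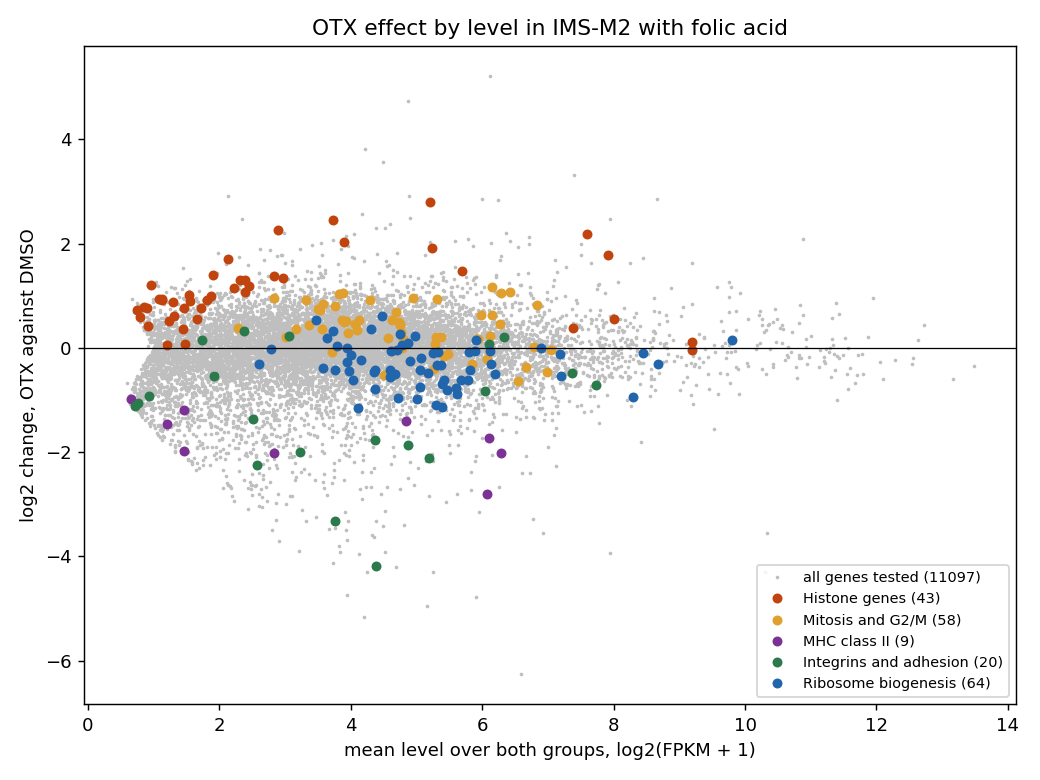
Log2 change of each gene tested, OTX against DMSO, by its mean level over both groups in log2(FPKM + 1), with 5 gene lists in colour. The lowest histone gene lies at -0.04, and all 9 MHC class II genes lie below it.

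HEXIM1 (chr17:43224683-43229468 in hg19, as the tables give it) had 37.7, 38.7 and 35.3 FPKM in the OTX libraries, against 7.97, 6.16 and 6.18 FPKM in the DMSO libraries. The groups lie far apart, and the 5.50-fold higher mean under OTX passed the test (log2 change 2.31 ± 0.11 (SE), adjusted p = 1.38e-06). LARP7, which binds the 7SK RNA of the same inhibitory complex, was also higher (19.1 ± 2.73 FPKM under OTX against 8.50 ± 2.67 FPKM in DMSO; log2 change 1.11); it shares its locus with other genes in the tables. MEPCE, the 7SK capping enzyme, was at 42.4 ± 4.92 under OTX against 46.0 ± 4.18 FPKM in DMSO and did not pass. Of the BET proteins, BRD2 rose (146 ± 9.64 FPKM under OTX against 82.3 ± 8.09 FPKM in DMSO; log2 change 0.82), as did BRD3 (18.9 ± 0.213 FPKM under OTX against 13.7 ± 1.94 FPKM in DMSO; 0.45). CDK9 (44.1 ± 2.96 FPKM under OTX against 52.7 ± 8.58 FPKM in DMSO) did not pass, at adjusted p = 0.131 in limma. CCNT1, a cyclin partner of CDK9, passed at 0.25 on the log2 scale with all libraries but not without DMSO replicate 1, and CCNT2 did not pass at -0.13. SERPINI1, a serpin that also responds to BET inhibitors, had 2.097, 2.55 and 1.68 FPKM in the OTX libraries, against 0.481, 0.421 and 0.499 FPKM in the DMSO libraries.

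Genes of the super elongation complex, which carries P-TEFb to paused polymerase, moved unevenly: 5 of 9 were higher and 1 was lower. ELL2 had 16.3, 18.4 and 15.9 FPKM in the OTX libraries, against 4.72, 5.67 and 6.40 FPKM in the DMSO libraries, and its groups do not overlap. The scaffolds AFF1 and AFF4 rose by 1.21 and 0.92 on the log2 scale and EAF1 by 0.35, whereas EAF2 fell to 14.5 ± 0.434 under OTX against 26.8 ± 5.90 FPKM in DMSO, log2 change -0.82. Of 7 factors of pausing and elongation 0 were called higher and 2 lower, NELFCD (-0.54) and, lost when any 1 library was left out, NELFA (-0.26), both subunits of the negative elongation factor.

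MYC, a growth-driving transcription factor often lowered by BET inhibition in blood cancers, had 142, 141 and 142 FPKM in the OTX libraries, against 184, 202 and 205 FPKM in the DMSO libraries. All 3 OTX libraries lie below the DMSO libraries, by 1.39-fold on the means (DMSO over OTX; log2 change -0.47 ± 0.09 (SE), adjusted p = 0.00253). MYCN, a paralogue, fell further, to 7.503 ± 1.01 under OTX against 19.7 ± 1.26 FPKM in DMSO (log2 change -1.29); it shares its locus with an antisense gene, and whether reads were counted by strand is not given in the sources used here. Among 9 other genes of the MYC and MAX network, 4 were higher, MAX itself (0.77), MXD1 (0.79), MXD4 (0.99) and MLXIP (0.45), and MNT was lower (-0.46). The calls of MLXIP and MNT were lost without some single libraries.

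Small RNA genes left aside, the steepest rise among called genes of at least 5 FPKM in a group was that of IER3 (chr6:30710975-30712327), a stress-responsive regulator of cell survival. It had 41.2, 39.3 and 41.2 FPKM in the OTX libraries, against 2.34, 2.55 and 2.60 FPKM in the DMSO libraries, a 16.2-fold difference (log2 change 3.57 ± 0.08 (SE), adjusted p = 4.59e-08). TXNIP (chr1:145438461-145442628), an alpha-arrestin that binds thioredoxin and limits glucose uptake, had 129.9, 132 and 133 FPKM in the OTX libraries, against 15.3, 18.5 and 18.6 FPKM in the DMSO libraries, 7.53-fold more under OTX. The related arrestin ARRDC4 was at 37.1 ± 1.69 under OTX against 12.8 ± 1.04 FPKM in DMSO (log2 change 1.46), and the glucose transporter SLC2A3 at 90.9 ± 2.69 under OTX against 22.8 ± 2.24 FPKM in DMSO (1.96), both called higher. ARRDC2 moved the other way (-0.88), and ARRDC3 did not pass (0.16).

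Another leading gene on the higher side was CDKN1A, the cell-cycle inhibitor p21, with 139.8, 126 and 138 FPKM in the OTX libraries, against 29.8, 28.2 and 27.6 FPKM in the DMSO libraries. SOCS3, a feedback inhibitor of cytokine signalling, had 91.7, 80.6 and 93.4 FPKM in the OTX libraries, against 23.9, 19.0 and 17.8 FPKM in the DMSO libraries. In both, every OTX library lies far above every DMSO library. The kinase gene PIM2 was at 137 ± 14.7 under OTX against 32.0 ± 3.76 FPKM in DMSO. The redox gene NXN (nucleoredoxin) was at 12.02 ± 0.530 under OTX against 1.82 ± 0.126 FPKM in DMSO. BNIP3, a mitophagy receptor, was at 167 ± 19.2 under OTX against 41.5 ± 8.41 FPKM in DMSO. FTL, the ferritin light chain, was the most abundant of them, with 3158, 3139 and 2833 FPKM in the OTX libraries, against 981, 641 and 568 FPKM in the DMSO libraries. DMSO replicate 1 is the highest of the DMSO libraries for FTL and still lies below every OTX library. FTH1, the heavy chain, rose as well (log2 change 1.18), while UROD, an enzyme of haem synthesis, fell to 38.1 ± 3.45 under OTX against 163 ± 20.8 FPKM in DMSO (-2.07).

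**Figure D2:**
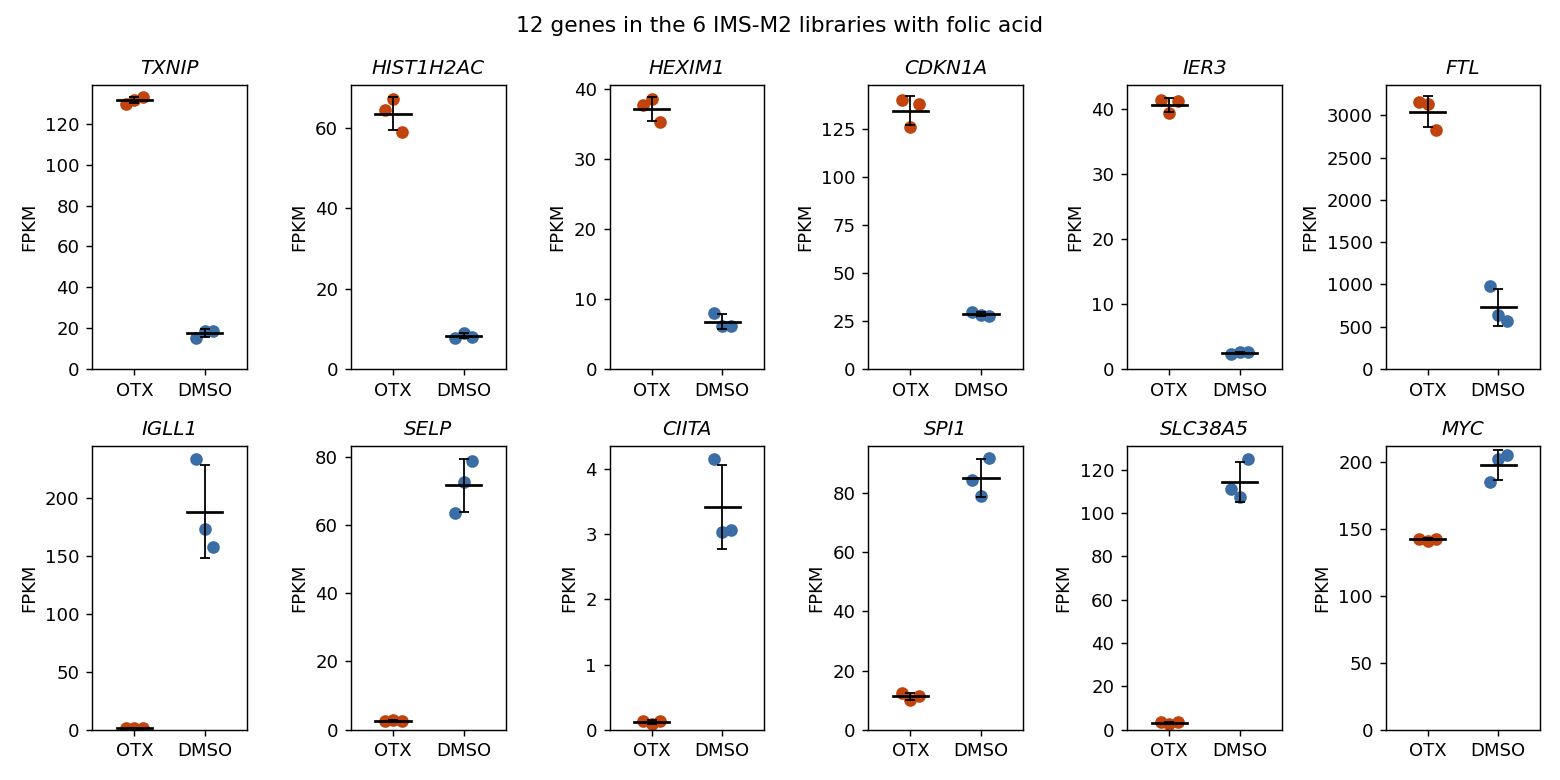
FPKM of 12 genes in each library, OTX left and DMSO right; points are libraries, bars the mean and whiskers the SD (n = 3). HEXIM1, TXNIP, HIST1H2AC, CDKN1A, IER3 and FTL are higher in every OTX library, the other 6 lower, with MYC the closest pair of groups.

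Of 43 tested histone genes (of 70 listed), 33 were called higher and 0 lower, with a median log2 change of 0.93, against 26.3% higher and a median of -0.03 over all genes tested. The 27 others lay below the filter in both groups. Of the 43, 13 passed the filter only through OTX, and 11 of these are among the 33. By the mean over all 6 libraries, 28 of 37 were higher and 0 lower. Replication-coupled histone mRNAs normally end in a stem-loop without a poly(A) tail, so polyadenylated RNA samples only a share of them. HIST1H2AC (chr6:26124372-26124918), a core H2A gene, had 64.7, 67.2 and 59.0 FPKM in the OTX libraries, against 7.81, 9.06 and 7.99 FPKM in the DMSO libraries. HIST2H2BE, an H2B gene, had 12.1, 10.99 and 10.7 FPKM in the OTX libraries, against 1.69, 1.47 and 1.48 FPKM in the DMSO libraries. All 4 linker histones tested were called higher, with H1FX at 316 ± 8.71 under OTX against 69.1 ± 8.41 FPKM in DMSO and HIST1H1C at 20.8, 23.2 and 19.5 FPKM in the OTX libraries, against 5.94, 2.82 and 1.48 FPKM in the DMSO libraries. For HIST1H1C, DMSO replicate 1 is well above the other two, and the groups still do not overlap. Of 6 variant histones 3 rose, among them H2AFX, the DNA damage variant (370.4 ± 14.98 under OTX against 111 ± 40.7 FPKM in DMSO, log2 change 1.79). H2AFZ, one of the most abundant, was at 575 ± 11.7 under OTX against 592 ± 73.5 FPKM in DMSO and did not pass.

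Promoters of 3 of these histone genes are shown because the group moved together and its promoters share an element; the windows run from 250 bases before to 50 bases after the start of the gene in RefSeq (GRCh38.p14), 5′ to 3′ on the gene's strand, and capitals mark CCAAT or its complement ATTGG.
HIST1H2AC (H2AC6, chr6:26123922-26124221, + strand): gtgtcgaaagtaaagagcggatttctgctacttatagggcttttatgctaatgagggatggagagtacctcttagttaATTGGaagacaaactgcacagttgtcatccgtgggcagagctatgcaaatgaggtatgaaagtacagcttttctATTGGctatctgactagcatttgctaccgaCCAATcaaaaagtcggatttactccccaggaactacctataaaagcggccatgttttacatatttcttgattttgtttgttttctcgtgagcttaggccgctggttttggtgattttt
HIST2H2BE (H2BC21, chr1:149886633-149886932, - strand): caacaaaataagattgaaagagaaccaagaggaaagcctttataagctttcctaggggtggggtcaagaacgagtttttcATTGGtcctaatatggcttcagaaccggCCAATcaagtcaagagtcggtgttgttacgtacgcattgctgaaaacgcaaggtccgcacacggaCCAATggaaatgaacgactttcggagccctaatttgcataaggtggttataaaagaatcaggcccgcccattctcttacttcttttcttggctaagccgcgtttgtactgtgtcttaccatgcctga
HIST1H1C (H1-2, chr6:26056421-26056720, - strand): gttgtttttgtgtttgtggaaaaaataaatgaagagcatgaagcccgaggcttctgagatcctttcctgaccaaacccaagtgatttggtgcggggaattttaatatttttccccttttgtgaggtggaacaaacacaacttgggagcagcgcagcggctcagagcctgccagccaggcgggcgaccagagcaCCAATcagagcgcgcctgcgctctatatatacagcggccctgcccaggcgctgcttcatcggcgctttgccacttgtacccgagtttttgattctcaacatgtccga

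CCAAT, searched on both strands, occurred in 29 of 36 tested histone genes with a window (80.6%), against 37.2% of the 8923 tested genes with one and 35.7% of all 27305 windows. A match is a description and not a bound site. The copies begin 68, 98 and 172 bases before the start of HIST1H2AC, 77, 142 and 170 bases before that of HIST2H2BE and 57 bases before that of HIST1H1C. Over all genes called with a log2 change of at least 1, the share with CCAAT was 43.4% of 226 on the higher side and 27.7% of 654 on the lower side.

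Cell-cycle genes changed in both directions. Of 7 CDK inhibitors 5 were higher and 1 lower, against 26.3% and 30.2% of all genes. Beside CDKN1A, CDKN2D (p19INK4D) rose to 17.4 ± 2.21 under OTX against 4.32 ± 0.0576 FPKM in DMSO. CDKN1B (p27) rose to 23.9 ± 3.13 under OTX against 13.9 ± 4.77 FPKM in DMSO. CDKN2C and CDKN3 rose by 0.50 and 0.48 on the log2 scale, and CDKN2A fell to 2.14 ± 0.335 under OTX against 6.30 ± 0.967 FPKM in DMSO. Among G1 cyclins, CCND3 had 471, 418 and 492 FPKM in the OTX libraries, against 142, 144 and 157 FPKM in the DMSO libraries. CCNE2 rose to 35.3 ± 4.96 under OTX against 12.9 ± 1.68 FPKM in DMSO. CCND2 fell to 32.2 ± 1.141 under OTX against 57.2 ± 7.18 FPKM in DMSO. CDK2 rose (0.98), CDK4 fell (-0.35; adjusted p above the threshold without OTX replicate 1), and CDK6 did not pass (52.5 ± 3.98 FPKM under OTX against 50.04 ± 8.68 FPKM in DMSO). Of 58 mitosis and G2/M genes, 34 were higher and 5 lower (58.6% and 8.62%), against 26.3% and 30.2% of all genes. Their median log2 change was 0.41. KIF11, a spindle motor, was at 39.9 ± 3.70 under OTX against 20.0 ± 2.1001 FPKM in DMSO. PTTG1 (securin) was at 115 ± 3.25 under OTX against 54.3 ± 7.91 FPKM in DMSO. CKAP2 was at 51.2 ± 5.67 under OTX against 26.3 ± 2.15 FPKM in DMSO. The mitotic kinase PLK1 was lower, at 72.1 ± 7.56 under OTX against 113 ± 20.0 FPKM in DMSO. Without DMSO replicate 1 the count was 34 higher and 7 lower.

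Of 41 DNA replication genes 9 were higher and 9 lower (22.0% each), below the 26.3% and 30.2% of all genes. Without DMSO replicate 1, 9 were higher and 17 lower. The helicase subunit MCM5 fell to 88.3 ± 6.07 under OTX against 192 ± 30.3 FPKM in DMSO. Its partner MCM2 fell to 92.6 ± 9.44 under OTX against 182 ± 22.5 FPKM in DMSO. CLSPN (claspin) rose to 11.7 ± 0.588 under OTX against 6.18 ± 0.138 FPKM in DMSO. The chromatin assembly subunit CHAF1B rose to 33.6 ± 1.62 under OTX against 21.1 ± 3.19 FPKM in DMSO. Of 13 E2F and RB family genes 4 were higher, led by E2F7 (0.98) and RB1 (0.93), and 2 lower, E2F2 (-1.12) and TFDP1 (-0.30, a call lost without most single libraries).

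In the BCL2 family, 3 of 5 survival members rose. MCL1 had 73.6, 80.7 and 75.1 FPKM in the OTX libraries, against 35.8, 33.8 and 32.6 FPKM in the DMSO libraries, and BCL2L1 was at 142 ± 13.4 under OTX against 67.7 ± 6.20 FPKM in DMSO, both without overlap between the groups. BCL2 was at 7.93 ± 0.419 FPKM under OTX against 6.32 ± 0.925 FPKM in DMSO, a call close to the threshold (log2 change 0.29, adjusted p = 0.0494). BCL2A1 fell to 0.906 ± 0.235 under OTX against 5.94 ± 1.07 FPKM in DMSO. Of 8 members that favour death 3 rose, PMAIP1 (NOXA, 1.03), BBC3 (PUMA, 1.04) and BAD (0.59), and 3 fell, BIK (-1.30), BID (-0.47) and BAK1 (-0.28). The calls of BCL2, BID and BAK1 were each lost when any of several single libraries was left out. Outside this family, BTG2, an antiproliferative gene, was at 21.8 ± 0.469 under OTX against 5.18 ± 1.11 FPKM in DMSO. The ubiquitin ligase MDM2 was at 42.5 ± 4.86 under OTX against 23.1 ± 0.138 FPKM in DMSO. FAS, a death receptor, fell to 2.57 ± 0.318 under OTX against 6.37 ± 0.475 FPKM in DMSO.

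NF-kB pathway genes were higher in 10 of 17, against 26.3% of all genes, with 3 lower and a median of 0.66; IER3 is one of the 10. Cytokines and chemokines divided, 6 of 16 higher and 7 lower, against 26.3% and 30.2% of all genes. CXCL10, LTA and CCL5 passed the filter only through OTX, where they are high, and IL8, LIF and CCL1 only through DMSO. By the mean over all 6 libraries, NF-kB, cytokine and chemokine genes together were higher in 15 of 32 and lower in 10. The shares over all genes by that mean were 26.6% and 29.3%. TNF had 16.3, 13.7 and 13.5 FPKM in the OTX libraries, against 5.38, 4.32 and 4.18 FPKM in the DMSO libraries. CXCL10, an interferon-induced chemokine, and LTA (lymphotoxin) also rose, and IL8, LIF and CCL1 fell. CCL1, a chemokine for CCR8-bearing cells, was listed at 0 in every OTX library and had 32.6, 34.4 and 36.9 FPKM in the DMSO libraries, so no fold is given. Among 16 immediate early genes 6 rose and 5 fell (37.5% and 31.25%), against 26.3% and 30.2% of all genes. JUND had 407, 444 and 389.8 FPKM in the OTX libraries, against 101, 68.1 and 58.2 FPKM in the DMSO libraries. IER2 was at 169.6 ± 11.6 under OTX against 38.8 ± 10.7 FPKM in DMSO. JUNB rose by 1.56 on the log2 scale. Among those that fell, FOSL1 was at 1.05 ± 0.0749 under OTX against 8.61 ± 0.854 FPKM in DMSO. BATF fell to 13.9 ± 1.20 under OTX against 31.5 ± 2.09 FPKM in DMSO. FOS fell to 0.867 ± 0.242 under OTX against 3.88 ± 0.789 FPKM in DMSO. Of the feedback phosphatases of MAP kinases, DUSP6 rose to 147 ± 2.75 under OTX against 37.7 ± 0.531 FPKM in DMSO. DUSP5 rose to 52.9 ± 3.54 under OTX against 14.9 ± 2.46 FPKM in DMSO. DUSP2 fell to 0.379 ± 0.0781 under OTX against 2.71 ± 0.340 FPKM in DMSO.

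Interferon-response genes did not move as 1 group: 7 of 26 were higher and 10 lower (26.9% and 38.5%), against 26.3% and 30.2% of all genes. Their median was 0.01. IRF7, a transcription factor of the response, had 30.6, 25.5 and 33.6 FPKM in the OTX libraries, against 4.92, 3.38 and 4.34 FPKM in the DMSO libraries. IFITM1, a membrane protein that blocks viral entry, had 18.6, 15.9 and 19.6 FPKM in the OTX libraries, against 179, 224 and 267 FPKM in the DMSO libraries. TRIM22 and USP18 fell by 1.41 and 1.05 on the log2 scale.

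The steepest fall was that of IGLL1 (chr22:23915312-23922495), the surrogate light chain of early B cells, with 1.37, 1.39 and 1.56 FPKM in the OTX libraries, against 234, 174 and 158 FPKM in the DMSO libraries, 131-fold more in DMSO (log2 change -6.26 ± 0.14 (SE), adjusted p = 4.59e-08). Several of the other leading genes encode cell-surface or secreted proteins. SELP (P-selectin) had 2.68, 2.69 and 2.66 FPKM in the OTX libraries, against 63.4, 72.6 and 78.8 FPKM in the DMSO libraries, and ANGPT1, a ligand of the TIE2 receptor, had 0.410, 0.374 and 0.517 FPKM in the OTX libraries, against 22.1, 26.5 and 24.0 FPKM in the DMSO libraries. Each group is tight and the means are 26.7-fold and 55.9-fold higher in DMSO. CLEC9A, a lectin receptor of dendritic cells, was at 1.11 ± 0.0708 under OTX against 31.8 ± 2.15 FPKM in DMSO. TNFRSF8 (CD30) was at 0.877 ± 0.0835 under OTX against 25.3 ± 3.40 FPKM in DMSO. Transporters were among them too, the fructose transporter SLC2A5 at 1.24 ± 0.165 under OTX against 68.5 ± 6.58 FPKM in DMSO and the amino acid transporter SLC38A5 at 3.24 ± 0.521 under OTX against 114 ± 9.30 FPKM in DMSO. DEPTOR, an inhibitor of mTOR, was at 1.65 ± 0.0944 under OTX against 47.6 ± 4.11 FPKM in DMSO. The decarboxylase DDC was at 1.85 ± 0.230 under OTX against 42.2 ± 1.98 FPKM in DMSO. The imprinted noncoding RNA H19 was at 29.6 ± 4.54 under OTX against 462 ± 45.0 FPKM in DMSO. Of the abundant genes, LGALS9 (galectin-9) was at 11.6 ± 2.16 under OTX against 110.1 ± 16.4 FPKM in DMSO. NINJ2 (ninjurin) was at 19.1 ± 0.981 under OTX against 198 ± 36.3 FPKM in DMSO. The protease PRSS57 was at 20.2, 16.3 and 20.9 FPKM in the OTX libraries, against 193, 109 and 94.6 FPKM in the DMSO libraries, where DMSO replicate 1 is the highest.

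All 9 MHC class II genes tested (of 12 listed) were lower, 8 of them by a log2 of at least 1, with a median of -1.73, against 30.2% lower over all genes tested. CIITA, HLA-DPB1, HLA-DMB and HLA-DPA1 passed the filter only through DMSO, where they are high. By the mean over all 6 libraries, 8 of 8 were lower. These genes present peptides to CD4 T cells. HLA-DRA, the alpha chain of HLA-DR, had 17.0, 15.04 and 15.2 FPKM in the OTX libraries, against 109.7, 119 and 120.2 FPKM in the DMSO libraries. HLA-DRB1 was at 29.8 ± 2.28 under OTX against 124 ± 9.18 FPKM in DMSO, CD74 (the invariant chain) at 31.0 ± 3.97 under OTX against 104.8 ± 4.36 FPKM in DMSO and HLA-DMA at 1.83 ± 0.173 under OTX against 10.4 ± 0.737 FPKM in DMSO. CIITA, the transactivator that these genes require, had 0.135, 0.0842 and 0.136 FPKM in the OTX libraries, against 4.16, 3.03 and 3.06 FPKM in the DMSO libraries. Near-identical HLA genes can share reads, so HLA-DRB1 and HLA-DRB5 are uncertain one by one. MHC class I genes differed: HLA-B (0.13) and HLA-C (0.12), named after their values were seen, did not pass. HLA-E (0.35) and B2M (0.37) passed on the higher side with all libraries but not without some single ones. Of the 16 genes of class I and peptide loading, 8 fell. ERAP2, a peptide-trimming enzyme, fell to 5.84 ± 0.216 under OTX against 19.8 ± 0.374 FPKM in DMSO. The immunoproteasome subunit PSMB8 fell to 38.4 ± 0.562 under OTX against 117 ± 9.33 FPKM in DMSO.

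The promoters of 3 class II genes, in the same windows and with the same capitals, are given because class II promoters share a conserved X and Y box, and the Y box is a CCAAT element.
HLA-DRB1 (chr6:32589799-32590098, - strand): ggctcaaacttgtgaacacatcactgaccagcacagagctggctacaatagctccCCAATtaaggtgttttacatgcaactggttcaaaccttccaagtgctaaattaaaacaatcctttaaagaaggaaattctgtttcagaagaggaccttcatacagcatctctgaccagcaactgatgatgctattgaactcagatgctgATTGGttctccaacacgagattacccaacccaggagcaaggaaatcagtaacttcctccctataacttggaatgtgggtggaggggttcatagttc
HLA-DMA (chr6:32953048-32953347, - strand): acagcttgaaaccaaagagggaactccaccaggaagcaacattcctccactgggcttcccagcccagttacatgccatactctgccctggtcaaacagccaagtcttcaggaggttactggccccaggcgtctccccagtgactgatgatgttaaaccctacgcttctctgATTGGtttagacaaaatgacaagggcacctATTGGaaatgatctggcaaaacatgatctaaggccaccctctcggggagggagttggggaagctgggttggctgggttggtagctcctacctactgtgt
CD74 (chr5:150412861-150413160, - strand): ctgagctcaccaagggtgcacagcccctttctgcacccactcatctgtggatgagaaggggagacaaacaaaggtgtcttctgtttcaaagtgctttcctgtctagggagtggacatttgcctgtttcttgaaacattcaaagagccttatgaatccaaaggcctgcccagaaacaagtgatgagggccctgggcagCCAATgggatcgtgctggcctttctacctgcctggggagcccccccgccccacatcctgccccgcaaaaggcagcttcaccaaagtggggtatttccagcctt

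CCAAT on either strand was found in 6 of the 7 class II genes with a window. The element thus occurs in most windows both of the histone genes, which were higher, and of the class II genes, which were lower. The copies nearest the start begin 46 bases before it in HLA-DRB1, 49 in HLA-DMA and 53 in CD74. HLA-DRB1 and HLA-DMA hold a further copy each, 195 and 79 bases before the start. Which copy is the Y box was not tested, and the nearest copy need not be it.

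All 7 early lymphoid genes tested (of 22 listed) were lower, IGLL1 among them. The others lay below the filter, DNTT and PAX5 at 0 in every library. VPREB3, also below the filter, went the other way, at 0.486 ± 0.0491 under OTX against 0.219 ± 0.125 FPKM in DMSO. CD79B fell to 4.39 ± 0.230 under OTX against 33.1 ± 1.32 FPKM in DMSO. Its partner CD79A fell to 6.83 ± 1.32 under OTX against 21.4 ± 1.83 FPKM in DMSO. The T cell kinase gene LCK was at 0.933 ± 0.106 under OTX against 9.26 ± 0.547 FPKM in DMSO. CD7, an early lymphoid surface protein, was at 18.4 ± 2.41 under OTX against 34.2 ± 2.75 FPKM in DMSO. Of 14 monocyte and macrophage genes 11 were lower and 0 higher, against 30.2% and 26.3% of all genes. AIF1, a calcium-binding protein of macrophages, fell to 147 ± 13.9 under OTX against 534 ± 172 FPKM in DMSO. CTSS (cathepsin S) fell to 0.535 ± 0.0567 under OTX against 10.7 ± 0.874 FPKM in DMSO. ITGAM was lower at 2.198 ± 0.292 under OTX against 7.25 ± 0.723 FPKM in DMSO. The defining monocyte markers CD14, S100A8, S100A9 and FCN1 were at or near 0 in both groups. Of 10 myeloid granule genes 8 were lower, and SERPINB1 and PRG2 were higher. LYZ (lysozyme) was at 1.61 ± 0.181 under OTX against 14.2 ± 2.05 FPKM in DMSO. CTSG (cathepsin G) was at 2.08 ± 0.316 under OTX against 35.8 ± 1.97 FPKM in DMSO. PLAC8 had 0.0833, 0.227 and 0.179 FPKM in the OTX libraries, against 18.9, 17.5 and 12.8 FPKM in the DMSO libraries.

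Of 14 endothelial-type genes 10 were lower, against 30.2% of all genes. CD34, also a marker of stem and progenitor cells, fell to 3.65 ± 0.0725 under OTX against 29.5 ± 2.81 FPKM in DMSO. ENG (endoglin) fell to 20.5 ± 2.98 under OTX against 95.6 ± 10.2 FPKM in DMSO. PECAM1 was at 1.08 ± 0.168 under OTX against 8.87 ± 1.28 FPKM in DMSO. FLT1, a VEGF receptor, was higher at 4.32 ± 0.180 under OTX against 1.62 ± 0.209 FPKM in DMSO. EGFL7 (273 ± 30.6 under OTX against 278 ± 54.1 FPKM in DMSO) did not pass. Integrins and adhesion genes were lower in 15 of 20 with 1 higher and a median of -0.98, against 30.2% and 26.3% of all genes. SELPLG, the ligand of P-selectin, fell to 1.47 ± 0.463 under OTX against 23.5 ± 3.25 FPKM in DMSO. The neurexin NRXN2 was at 1.17 ± 0.228 under OTX against 38.7 ± 6.47 FPKM in DMSO. ITGA6 was the 1 that rose (4.77 ± 0.382 under OTX against 3.60 ± 0.161 FPKM in DMSO). Of 14 leukocyte tetraspanins 7 were lower. CD53 was at 5.30 ± 0.723 under OTX against 39.8 ± 10.01 FPKM in DMSO. CD37 was at 64.6 ± 9.71 under OTX against 205 ± 12.8 FPKM in DMSO. CD82 was higher at 82.1 ± 8.48 under OTX against 34.7 ± 4.42 FPKM in DMSO. Members that passed the filter only through DMSO make up 3 of the 7 early lymphoid genes called lower, 7 of the 11 monocyte and macrophage genes, 4 of the 8 granule genes, 4 of the 10 endothelial-type genes and 3 of the 15 adhesion genes. By the mean over all 6 libraries the counts lower were 7 of 7 early lymphoid, 8 of 11 monocyte and macrophage, 7 of 9 granule, 9 of 13 endothelial-type and 12 of 17 adhesion genes. Without DMSO replicate 1 the counts lower were 7 early lymphoid, 11 monocyte, 10 endothelial-type, 15 adhesion and 9 class II genes. Markers of other cell types moved the same way. The summed level of 7 monocyte markers was 3.43 to 4.44 FPKM in the OTX libraries and 21.3 to 24.6 FPKM in the DMSO libraries. That of 5 B cell markers was 9.86 to 12.2 FPKM under OTX and 51.4 to 56.6 FPKM in DMSO. That of 6 T and NK cell markers was 0.517 to 1.004 FPKM under OTX and 8.62 to 9.90 FPKM in DMSO. That of 5 endothelial markers was 2.169 to 3.0003 FPKM under OTX and 16.1 to 17.8 FPKM in DMSO. In DMSO 3 of 7, 2 of 5, 2 of 6 and 3 of 5 of these markers reached 1 FPKM. The summed level of the 12 markers of blood cells and myeloid blasts, the line's own kind, fell too. It was 308 to 335 FPKM under OTX and 514 to 554 FPKM in DMSO. Of these 12, PTPRC, CD33, CD34, CD38, SPI1, MPO and CD44 were called lower. CEBPA was called higher, KIT and LYL1 did not pass, and FLT3 and IL3RA lay below the filter. Megakaryocyte markers summed to 15.1 to 20.7 FPKM under OTX and 61.7 to 79.2 FPKM in DMSO. Epithelial ones summed to 69.4 to 73.2 and 91.3 to 93.5 FPKM in that order. The summed level of the 10 HOX and NPM1 leukaemia markers rose, from 990 to 1045 FPKM in DMSO to 1163 to 1330 FPKM under OTX. NPM1, the largest part of that sum, was at 940 ± 97.8 FPKM under OTX against 843 ± 37.4 FPKM in DMSO and did not pass. The members went different ways, with HOXA9 called higher and HOXA7 lower. The part of other cell types in the falls was not tested.

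**Figure D3:**
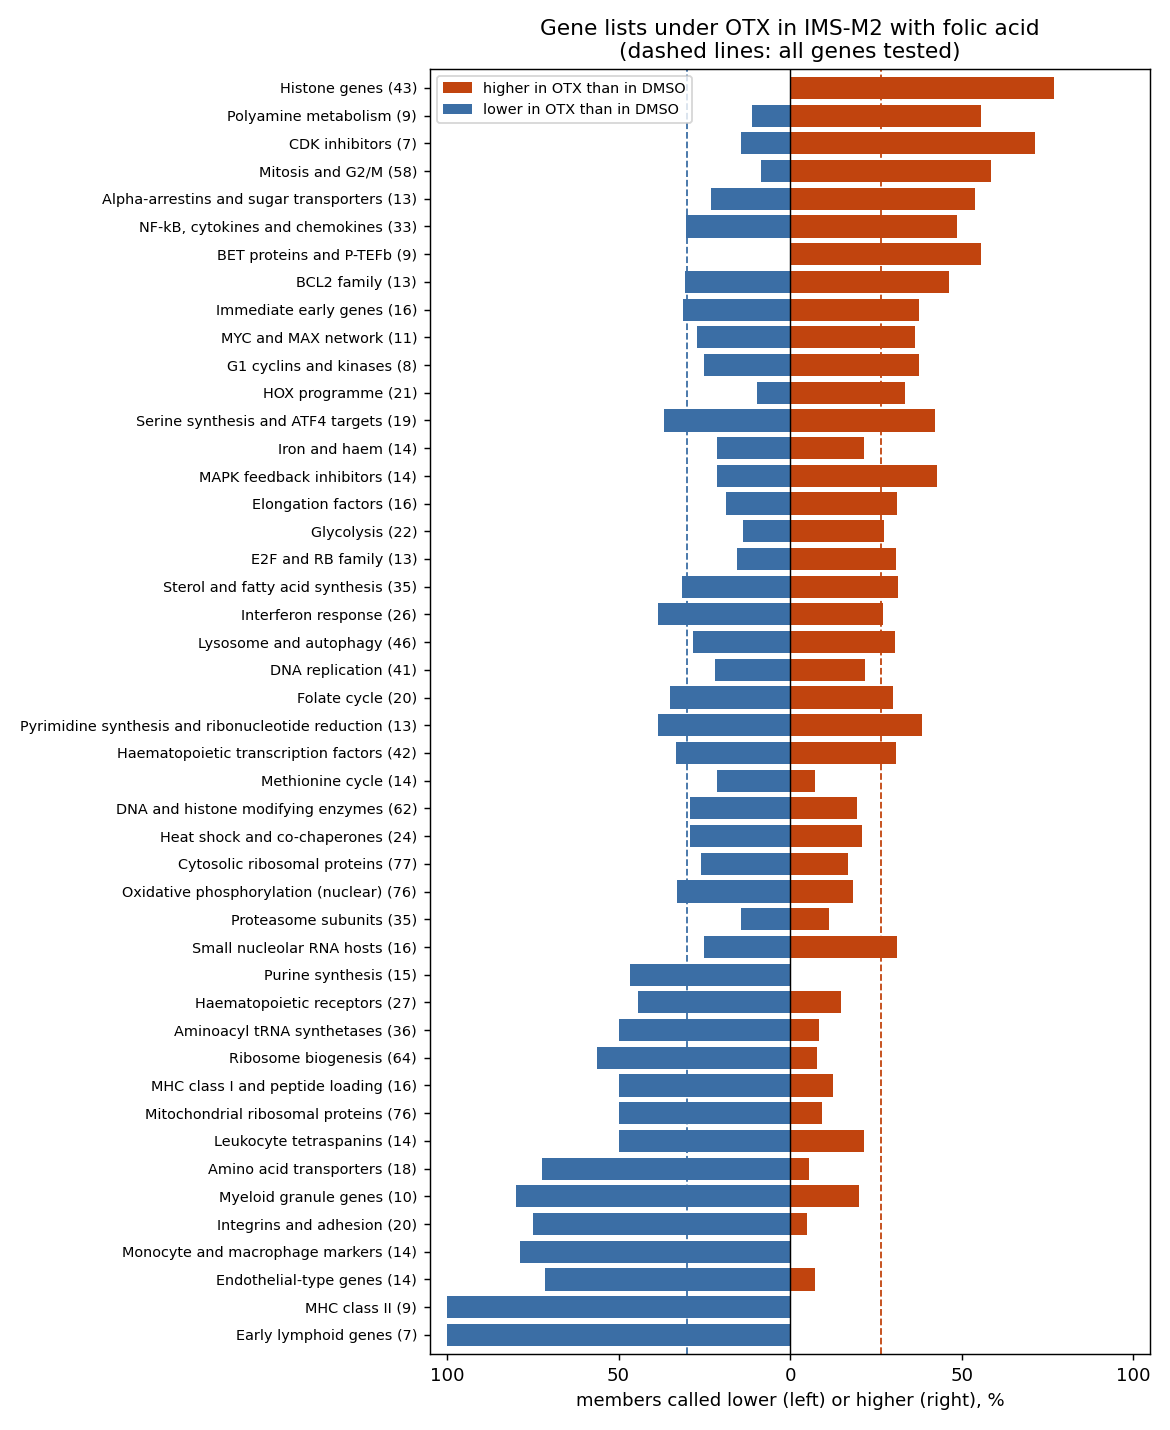
Share of tested members called higher (right) or lower (left) under OTX for each of 46 gene lists, ordered by median log2 change; numbers in brackets are the members tested, and dashed lines are the shares over all genes, 26.3% and 30.2%. Histone genes stand at the top, and early lymphoid and MHC class II genes at the bottom with every tested member lower.

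Among receptors, 6 of 10 receptor tyrosine kinases fell. TYRO3 was at 2.45 ± 0.298 under OTX against 19.5 ± 0.433 FPKM in DMSO. PDGFRB was at 1.56 ± 0.245 under OTX against 5.19 ± 0.714 FPKM in DMSO. KIT, the receptor of stem cell factor, did not pass at 31.6 ± 1.84 under OTX against 32.7 ± 1.90 FPKM in DMSO. Of 14 cytokine receptors 4 fell and 2 rose. IL7R fell to 1.06 ± 0.152 under OTX against 6.72 ± 0.357 FPKM in DMSO. IL2RG, the common gamma chain, fell to 51.2 ± 4.76 under OTX against 129 ± 7.81 FPKM in DMSO. CSF2RB, the common beta chain, rose to 35.8 ± 4.82 under OTX against 12.2 ± 2.79 FPKM in DMSO. IL6ST (gp130) rose to 7.07 ± 0.770 under OTX against 2.91 ± 0.313 FPKM in DMSO.

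Transcription factors of blood cells split, 13 of 42 higher and 14 lower (31.0% and 33.3%), near the 26.3% and 30.2% of all genes. SPI1 (PU.1), which drives myeloid differentiation, had 12.45, 10.1 and 11.5 FPKM in the OTX libraries, against 84.3, 79.0 and 91.9 FPKM in the DMSO libraries, with groups wide apart (log2 change -2.80). IRF5 fell to 0.508 ± 0.160 under OTX against 9.99 ± 0.975 FPKM in DMSO. HLF fell to 1.29 ± 0.0627 under OTX against 10.3 ± 0.909 FPKM in DMSO. RUNX1 had 136, 132 and 131 FPKM in the OTX libraries, against 55.1, 55.7 and 59.9 FPKM in the DMSO libraries. HHEX was at 135 ± 12.47 under OTX against 50.2 ± 5.53 FPKM in DMSO. ID2, an inhibitor of E proteins, rose by 1.62 on the log2 scale, and all 3 were called higher. In the HOX programme, 5 of 9 HOXA genes rose and 2 fell. HOXA9 had 85.8, 86.4 and 84.2 FPKM in the OTX libraries, against 40.8, 31.0 and 27.3 FPKM in the DMSO libraries. HOXA10 was at 35.0 ± 1.39 under OTX against 17.4 ± 6.55 FPKM in DMSO. HOXA7, which lies between HOXA6 and HOXA9 in the cluster, fell to 4.69 ± 0.409 under OTX against 10.5 ± 0.839 FPKM in DMSO. Its neighbour HOXA6 rose by 0.37 on the log2 scale. These neighbours share loci in the tables, so their reads may have been split between them. Of 8 HOXB genes 2 were higher and 0 lower, a share on the higher side near that of all genes. HOXB2 rose to 39.1 ± 0.841 under OTX against 15.3 ± 7.53 FPKM in DMSO. HOXB3 rose to 27.1 ± 2.75 under OTX against 14.8 ± 3.16 FPKM in DMSO. The cofactors MEIS1 and PBX3 did not pass. MEIS1 was at 27.9 ± 1.10 under OTX against 27.4 ± 4.75 FPKM in DMSO. PBX3 was at 31.9 ± 0.492 under OTX against 26.2 ± 3.41 FPKM in DMSO.

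Of 64 ribosome biogenesis factors 36 were lower, against 30.2% of all genes, and 5 higher, with a median log2 change of -0.32. NLE1 was at 9.81 ± 0.900 under OTX against 22.8 ± 0.231 FPKM in DMSO. WDR74 was at 23.9 ± 1.66 under OTX against 52.4 ± 5.25 FPKM in DMSO. PPAN, which shares its locus with other genes, was at 25.2 ± 1.54 under OTX against 56.4 ± 1.001 FPKM in DMSO. GAR1, a subunit of box H/ACA particles, was at 16.8 ± 0.639 under OTX against 33.8 ± 2.70 FPKM in DMSO. On the higher side TAF1B, a subunit of the RNA polymerase I selectivity factor, was at 12.1 ± 1.83 under OTX against 7.99 ± 1.33 FPKM in DMSO. The E-box CACGTG, a palindrome bound by MYC and MAX among others, occurred in 19 of 54 promoter windows of this list (35.2%), against 10.5% of tested genes and 7.43% of all windows. Among all genes called with a log2 change of at least 1, it occurred in 8.85% of 226 on the higher side and 10.7% of 654 on the lower side. Whether the E-box goes with the falls in this list was not tested. Mitochondrial ribosomal proteins were lower in 38 of 76 and higher in 7, and aminoacyl tRNA synthetases in 18 of 36 and 3. The shares over all genes were 30.2% and 26.3%. Without DMSO replicate 1 the counts were 41 and 10 for the former and 21 and 3 for the latter. MRPL23 was at 45.7 ± 0.735 under OTX against 112 ± 5.27 FPKM in DMSO. VARS, the valine enzyme, was at 48.4 ± 4.29 under OTX against 102 ± 7.19 FPKM in DMSO. Of 77 cytosolic ribosomal proteins 13 were higher and 20 lower with all libraries, and 15 and 39 without DMSO replicate 1, in which the listed genes had 29.7% of the FPKM sum, against 31.4% and 30.3% in DMSO replicates 2 and 3 and 28.4% to 28.6% under OTX.

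Other lists moved with that library too. Proteasome subunits were lower in 5 of 35 with it and 21 without it, and nuclear subunits of oxidative phosphorylation in 25 of 76 with it and 35 without it. Transcription factors of blood cells were lower in 14 of 42 with it and 17 without it. The same counts were 13 of 46 and 16 for lysosome and autophagy genes, and 7 of 24 and 10 for heat shock genes. Glycolytic genes were higher in 6 of 22 and 8. Over all genes 3347 were lower with that library and 3859 without it. PSMB5, a catalytic subunit, was at 74.6 ± 3.62 under OTX against 114 ± 8.85 FPKM in DMSO.

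Metabolic genes showed no common direction. In the folate cycle, the pathway named in the series, 6 of 20 genes were higher and 7 lower, near the 26.3% and 30.2% of all genes. SLC19A1, the reduced folate carrier, had 41.9, 35.7 and 42.9 FPKM in the OTX libraries, against 99.9, 78.3 and 79.5 FPKM in the DMSO libraries. MTHFD1L, a mitochondrial synthetase, was at 17.0 ± 0.836 under OTX against 41.2 ± 4.30 FPKM in DMSO. MTHFD1 was at 51.4 ± 0.635 under OTX against 77.6 ± 5.57 FPKM in DMSO, and all 3 were called lower. GGH, which trims folate polyglutamates, rose to 88.5 ± 12.6 under OTX against 46.6 ± 8.16 FPKM in DMSO. SHMT2 and TYMS did not pass. SHMT2 was at 96.3 ± 7.45 under OTX against 106 ± 7.47 FPKM in DMSO. TYMS was at 221 ± 3.66 under OTX against 235 ± 59.96 FPKM in DMSO. In the methionine cycle CBS, an enzyme of transsulphuration, fell to 37.3 ± 1.98 under OTX against 102 ± 7.28 FPKM in DMSO. Of 15 purine synthesis genes 7 were lower and 0 higher. IMPDH1 was at 20.7 ± 2.43 under OTX against 45.2 ± 4.29 FPKM in DMSO. ATIC was at 50.8 ± 2.53 under OTX against 99.9 ± 16.3 FPKM in DMSO. Of 13 genes of pyrimidine synthesis and ribonucleotide reduction 5 were lower and 5 higher. CAD was lower at 25.4 ± 3.22 under OTX against 46.7 ± 6.65 FPKM in DMSO. RRM2 was higher at 206 ± 23.1 under OTX against 74.97 ± 10.4 FPKM in DMSO. Of 9 polyamine genes 5 were higher, ODC1 and its antizymes OAZ1 and OAZ2 among them (0.56, 0.68 and 0.68 on the log2 scale), and SRM was lower (-0.71).

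Amino acid transporters were lower in 13 of 18 and higher in 1, against 30.2% and 26.3% of all genes. SLC1A3, a glutamate transporter, fell to 3.40 ± 0.207 under OTX against 24.3 ± 2.28 FPKM in DMSO. SLC43A1 fell to 17.1 ± 1.86 under OTX against 72.3 ± 11.03 FPKM in DMSO. SLC38A2 rose to 60.8 ± 6.36 under OTX against 40.7 ± 2.37 FPKM in DMSO. The 3 enzymes of serine synthesis were lower, PHGDH by 0.26, PSAT1 by 0.54 and PSPH by 0.31 on the log2 scale, with limma adjusted p = 0.0384, 0.00639 and 0.0457 in that order. Glycolytic genes passed on the higher side in 6 of 22 (27.3%, near the 26.3% of all genes) and on the lower side in 3. ALDOA (aldolase) was at 1712 ± 149.9 under OTX against 1167 ± 107 FPKM in DMSO. Sterol and fatty acid genes were higher in 11 of 35 and lower in 11 (31.4% each, near the 26.3% and 30.2% of all genes). INSIG1 was at 114 ± 8.12 under OTX against 52.3 ± 5.36 FPKM in DMSO. ELOVL6 was at 4.18 ± 0.429 under OTX against 15.6 ± 1.29 FPKM in DMSO. Among 24 heat shock and co-chaperone genes 5 were higher and 7 lower (20.8% and 29.2%). HSPA5 (BiP), the chaperone of the endoplasmic reticulum, was at 73.4 ± 3.10 under OTX against 166 ± 23.1 FPKM in DMSO. DNAJB1 was at 73.0 ± 2.36 under OTX against 52.3 ± 1.99 FPKM in DMSO. Lysosome and autophagy genes were higher in 14 of 46 (30.4%) and lower in 13 (28.3%), near the 26.3% and 30.2% of all genes. MAP1LC3B led the higher side (51.4 ± 3.19 under OTX against 20.6 ± 2.48 FPKM in DMSO).

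Of 62 DNA and histone modifying enzymes 12 were higher and 18 lower (19.4% and 29.0%, against 26.3% and 30.2% of all genes). SIRT1, a deacetylase, rose to 19.9 ± 2.66 under OTX against 6.84 ± 0.578 FPKM in DMSO. The demethylase KDM4B rose to 18.4 ± 1.81 under OTX against 8.57 ± 1.48 FPKM in DMSO. The acetyltransferase KAT2A fell to 17.4 ± 1.78 under OTX against 37.3 ± 3.19 FPKM in DMSO. The arginine methyltransferase CARM1 fell to 17.5 ± 1.84 under OTX against 39.9 ± 4.93 FPKM in DMSO. The DNA methyltransferase DNMT3A fell to 3.73 ± 0.272 under OTX against 7.57 ± 0.777 FPKM in DMSO. The noncoding RNA NEAT1, the core of paraspeckles, rose to 209.7 ± 21.2 under OTX against 64.2 ± 9.37 FPKM in DMSO. MALAT1 rose to 34.1 ± 0.755 under OTX against 10.3 ± 2.62 FPKM in DMSO. SNHG8, a host of small nucleolar RNA that shares its locus with SNORA24, fell to 154 ± 6.46 under OTX against 257 ± 17.5 FPKM in DMSO. Beside CCL1, 33 genes were listed at 0 in all libraries of 1 group and averaged at least 5 FPKM in the other, and all are small RNAs, 15 of them listed at 0 under OTX and 18 in DMSO.

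The share of genes called varied with level and with genomic span. Among 8259 tested genes with a locus of their own, split into 10 groups of equal size by mean level, 36.0% of the second lowest (median 2.86 FPKM) were called lower and 23.0% higher, whereas in the fifth group (median 10.6 FPKM) 23.1% were lower and 35.8% higher. In the highest group (median 127 FPKM) 30.3% were lower and 22.6% higher, and 43.0% were lower without DMSO replicate 1. The lowest group is left aside, since genes of such a level could pass the filter through 1 group alone, the one in which they are high. By genomic span, 39.3% of the second group (median 6418 bases) were lower and 19.7% higher, and the ninth group (median 93712 bases) showed the opposite order, 20.9% lower and 34.9% higher. Without DMSO replicate 1 the second group held 45.3% lower and the ninth 26.2%. What part span or level plays in single calls was not tested.

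**Figure D4:**
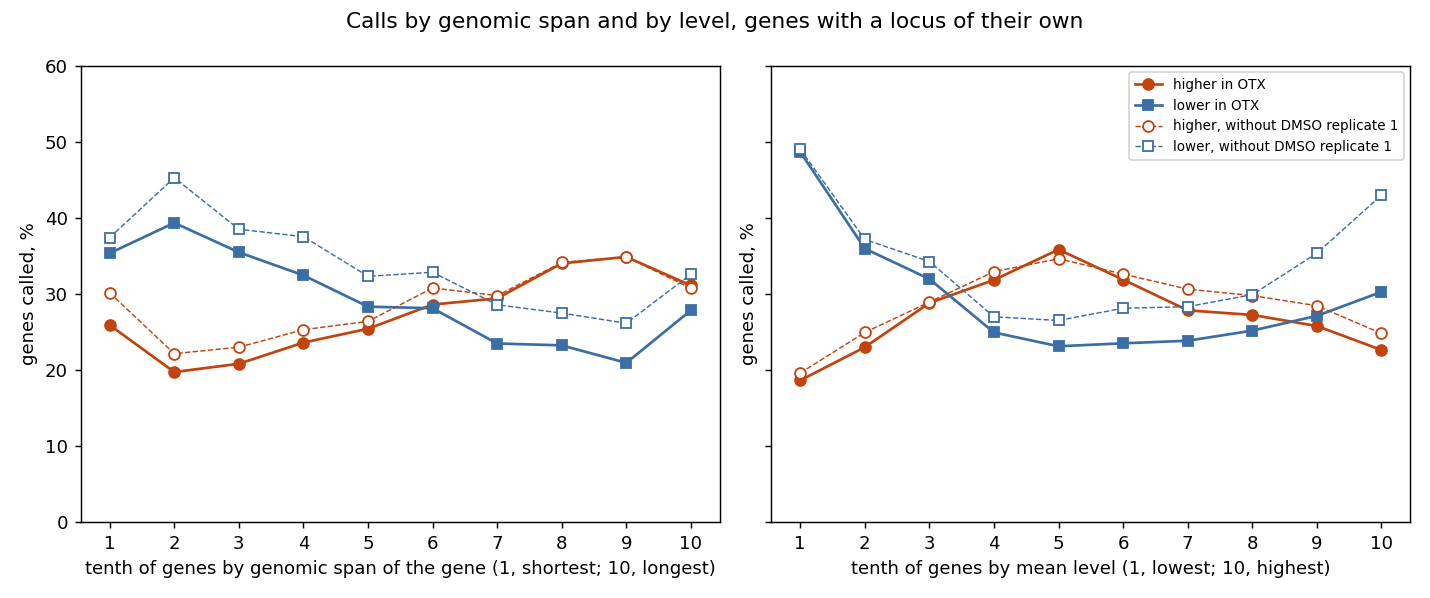
Share of genes called higher or lower under OTX in each of 10 equal groups of 8259 genes with a locus of their own, by genomic span (left) and by mean level (right); dashed lines leave out DMSO replicate 1. With all libraries, lower calls outnumber higher ones among short genes and in the lowest and the highest groups by level, and higher calls outnumber lower ones among the longer genes; the lowest group by level holds genes that passed the filter through 1 group.

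Set against U937 with folic acid, 5714 of 12022 genes (47.5%) had an OTX effect in IMS-M2 that differed from that in U937 in a model over the 12 libraries, 2622 in the higher and 3092 in the lower direction. The 2 lines come from separate tables with no library in common, and levels are not compared between them. MYC had the largest difference of the 9 genes fixed by name. In U937 it had 22.6, 25.2 and 24.1 FPKM in the OTX libraries, against 192, 207 and 188 FPKM in the DMSO libraries, a log2 change of -2.98 beside -0.47 in IMS-M2 (difference 2.51 ± 0.10 (SE), limma adjusted p = 1.22e-08). Ribosome biogenesis genes followed the same order: in 50 of 64 the change in IMS-M2 was higher than that in U937, in 0 lower, against 21.8% of all genes in that direction, and the median log2 change was -0.32 in IMS-M2 and -1.02 in U937. NOP16 changed by -0.81 in IMS-M2 and -1.76 in U937, and NPM1 by 0.15 and -0.87 in that order; these 2 were chosen after their values were seen. Leaving out any 1 library left 49 or 50 of the 64. Histone genes differed in the higher direction in 19 of 47, with a median change of 0.93 in IMS-M2 and 0.38 in U937 over the 43 tested in IMS-M2.

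In the other direction, all 9 MHC class II genes and 20 of 22 adhesion genes had a lower change in IMS-M2 than in U937, against 25.7% of all genes. For class II genes only 3 of the 9 reached 1 FPKM in U937 DMSO, which limits how far they could fall there, whereas 18 of the 20 adhesion genes tested in IMS-M2 did. ITGAM, an integrin chain of myeloid cells, changed by -1.37 in IMS-M2 and 1.24 in U937 on the log2 scale, and the tetraspanin CD53 by -2.67 in IMS-M2, against 1.53 in U937. HEXIM1 rose more in IMS-M2 (difference 1.06, limma adjusted p = 0.00100).

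Set against IMS-M2 without folic acid, 779 of 11223 genes (6.94%) had an OTX effect that differed with folic acid, 405 in the higher (3.61%) and 374 in the lower (3.33%) direction. After rescaling to the upper quartile the split was 245 and 588. The count rests on single libraries: it was 3417 without the +FA DMSO replicate 1, 1245 without the -FA OTX replicate 2 and 82 to 288 without any other library. Of 3 lists followed with each library left out, the count varied least for serine synthesis genes and targets of ATF4, the transcription factor of amino acid stress. In 8 of 19 the change with folic acid was lower than without it, and in 7 to 9 when any 1 library was left out. CHAC1, a glutathione-degrading enzyme, had 4.20, 3.64 and 4.93 FPKM in the OTX libraries with folic acid, against 7.05, 6.09 and 6.26 FPKM in DMSO. Without folic acid it had 16.3, 14.99 and 18.1 FPKM in the OTX libraries, against 5.13, 4.51 and 5.41 FPKM in DMSO. It fell with folic acid and rose without it. DDIT4, an inhibitor of mTOR, changed by 0.45 with folic acid and 2.30 without it on the log2 scale, and PCK2, a mitochondrial enzyme of gluconeogenesis, by -1.18 with folic acid and 0.38 without. Asparagine synthetase, ASNS, and PSAT1, named after their values were seen, had differences of -1.26 and -1.02.

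Amino acid transporters had a lower change with folic acid in 10 of 20 genes, in 10 without the +FA DMSO replicate 1 and in 3 to 10 when any 1 library was left out. SLC7A5, which carries large neutral amino acids, and the cystine transporter SLC7A11, both named after their values were seen, changed by -0.85 and -0.69 with folic acid, against 0.18 and 0.24 without it. Sterol and fatty acid genes were lower in 9 of 35, but in 2 to 16 without 1 library. The folate cycle itself had 1 of 20 genes in the lower and 0 in the higher direction. Neither MYC (difference 0.15 ± 0.09, SE) nor HEXIM1 (0.28 ± 0.13) passed, and HEXIM1 passed without the +FA DMSO replicate 1 (limma adjusted p = 0.0183). Several leaders of the higher side scattered among the +FA DMSO libraries, such as RPS25, a ribosomal protein, with 1115, 1267 and 1134 FPKM in the OTX libraries, against 1053, 445 and 298 FPKM in DMSO.

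**Figure D5:**
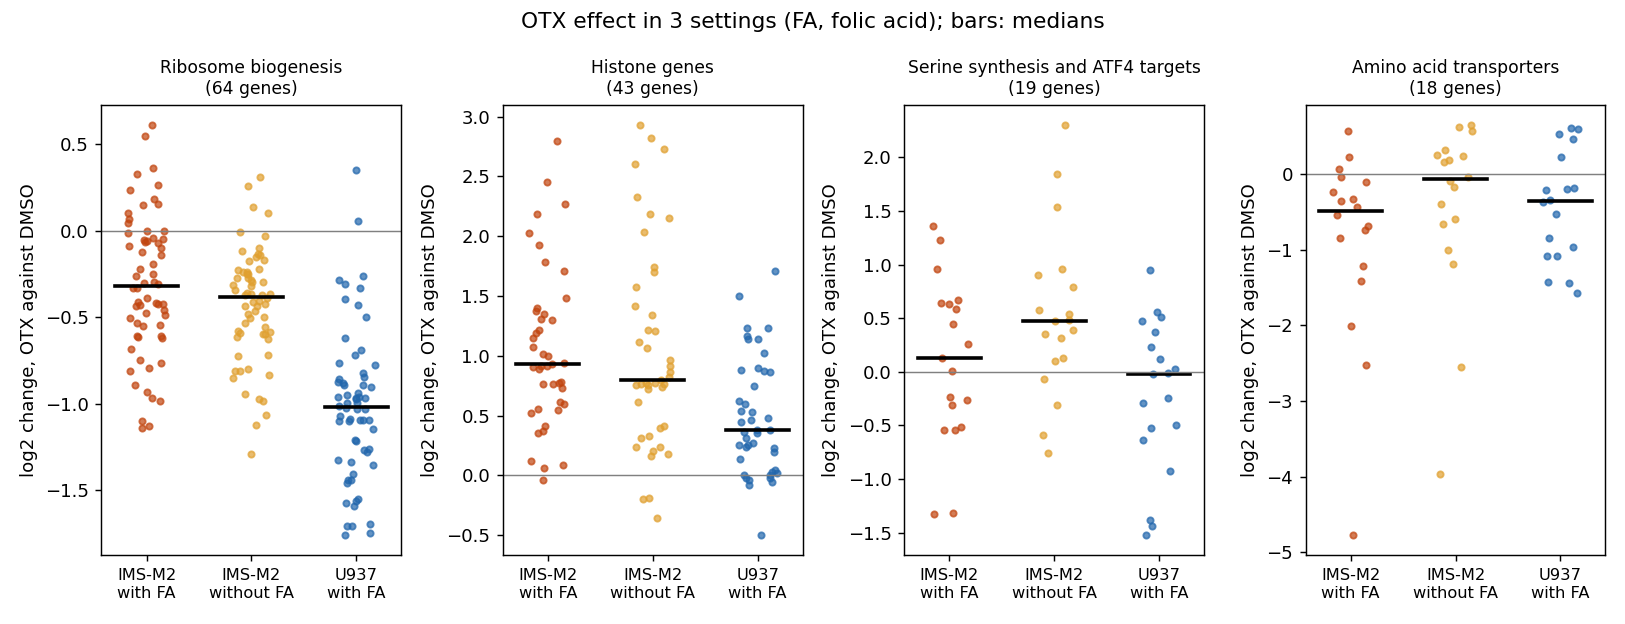
Log2 change under OTX of each member of 4 gene lists in IMS-M2 with folic acid, IMS-M2 without it and U937 with it; points are genes tested in IMS-M2 with folic acid and bars their medians. The medians of ribosome biogenesis genes are -0.32, -0.38 and -1.02, and those of serine synthesis and ATF4 target genes 0.13, 0.47 and -0.02, in that order.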

How the data were processed

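RNA was extracted with the Qiagen RNAEasy plus mini kit and polyadenylated RNA was made into TruSeq Stranded mRNA LT libraries, per the labels' protocols. The build hg19 and the tools TopHat2 2.1.1, Cuffdiff 2.2.1 and bcl2fastq 2.17.1.14 come from the submitters' processing notes, without their order or settings; how strand was used in counting is not given in the sources used here. The authors deposited 1 table per cell line and medium with gene symbol, locus and 1 value per library; the headers name no unit, and the values are taken as FPKM, as Cuffdiff writes them. No read counts were used, so depth and counting error are unknown.

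From the deposited FPKM, log2(FPKM + 1) was fitted with limma 3.58.1 in R 4.3.3 (empirical Bayes with an intensity trend) over the 6 libraries, for genes whose mean reached 1 FPKM under OTX or in DMSO. Differences between settings were contrasts in fits over 12 libraries. P-values were adjusted by Benjamini-Hochberg over all genes tested and called under 0.05. Genes named are 9 fixed ones; the 15 highest and 15 lowest called genes that average 5 FPKM or more on one side and whose libraries do not overlap, small RNAs left out; the 10 highest and lowest with at least 100 FPKM; per list up to 4 called members a direction by p, or any member where at most 15 were measured; genes listed at 0 in a whole group; and the 8 highest and lowest called per difference. Members and gene lists were chosen with earlier results of these data known. Promoters came from RefSeq tables (GRCh38.p14), matched by symbol. The table of U937 without folic acid was not used here. Results on some genes that fall under the rules above are not reported here.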

Additional observations from a re-analysis of the deposited data

Results flagged for a closer look

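The OTX effect in IMS-M2 with folic acid was set against that in 2 other settings, and the genes below were picked out because the difference itself passed the test in limma over 12 libraries. Values are differences of log2 changes.

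Between IMS-M2 with and without folic acid, 779 genes differed. Of the 17 genes listed here, CHAC1, DDIT4, PCK2 and CD53 stayed called in every alternative run, and the other 13 lost the call in some. BCL2 had a difference of 0.66 (adjusted p = 0.0249). The 8 highest were RPS25 (1.69), EMC6 (1.61), LOC100652739 (1.45), GNG10 (1.45), MRPL54 (1.43), DNAAF3 (1.41), RPL24 (1.37) and TMEM183A (1.35). The 8 lowest were CHAC1 (-2.05), DDIT4 (-1.85), C21orf90 (-1.60), FAM45A (-1.59), PCK2 (-1.55), CD53 (-1.49), CRIPAK (-1.41) and HIST1H2BC (-1.35). CD53 changed by -2.67 with folic acid and -1.18 without it.

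Between IMS-M2 and U937 with folic acid, 5714 genes differed. Of the 20 listed here, 16 stayed called in every alternative run, and BCL2, BCYRN1, BRD3 and COMMD3-BMI1 lost the call in some. Among the fixed genes, MYC differed by 2.51, HEXIM1 by 1.06, BRD3 by 0.43, BCL2 by 0.42 and CDK9 by -0.85. MYC is one of the 8 highest, and the other 7 were BCYRN1 (3.74), MS4A3 (3.42), FCER2 (3.03), CYBB (2.80), TBXA2R (2.54), TARP (2.51) and PRTN3 (2.48). MS4A3 changed by -0.05 in IMS-M2 and -3.47 in U937, and CYBB, the catalytic subunit of the phagocyte oxidase, by -0.26 in IMS-M2 and -3.06 in U937. In IMS-M2 MS4A3 averaged 0.0232 FPKM under OTX and 0.0610 FPKM in DMSO, and PRTN3 0.0741 and 0.221 FPKM. Both lay below the filter there and could hardly fall, so their differences rest on U937. The 8 lowest were COMMD3-BMI1 (-5.91), CCL1 (-5.15), IGLL1 (-4.76), SLC38A5 (-4.56), SELP (-4.30), CD53 (-4.20), ANGPT1 (-4.13) and C21orf90 (-3.97). CCL1 is listed at 0 in a group, so its value depends on the added 1 FPKM. The difference of ANGPT1 is as large as its log2 change in IMS-M2 (-4.13), so it rests on IMS-M2. Levels of the 8 lowest in U937 are not given here, so little room to fall there is not told apart from no response.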

How the results depend on the processing

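For OTX in IMS-M2 with folic acid, the count of called genes was 6271 and became 4802 with a filter at 5 FPKM, 7165 with no filter, 6262 with 0.1 FPKM added, 6303 after rescaling to the upper quartile, 6258 without the intensity trend, 7040 in a fit over 12 IMS-M2 libraries and 5082 to 6942 without 1 library; 1183 had a log2 change of at least 1. Of 47 gene lists, 15 had most of their tested members called in 1 direction, and 11 to 22 without 1 library. The count for the difference between IMS-M2 with and without folic acid was 779, and became 445 with no filter, 833 after rescaling (245 higher, 588 lower, against 405 and 374), 706 with 0.1 FPKM added and 82 to 3417 without 1 library. For IMS-M2 against U937 it was 5714, and 4774 to 6282 without 1 library. A replicate block gave 6952, 1920 and 5415 genes in that order and 20 gene lists. Same-numbered OTX and DMSO libraries of IMS-M2 with folic acid had deviations correlated at 0.0521, 0.276 and 0.0741. Differently numbered ones had -0.162 to 0.0683. Same-numbered libraries had 0.0707, 0.218 and 0.198 in IMS-M2 without folic acid, and -0.345, 0.121 and -0.239 in U937 with it. The labels do not pair the samples, and these values do not settle whether same-numbered libraries share more than a number. Of 338 named genes called under OTX, 298 stayed called in every alternative run, 40 lost the call in some and 0 reversed. The same tally was 4 of 17 for the difference by folic acid and 16 of 20 for that between lines. Depth is unknown, so no counting limit can be given for low genes, and FPKM cannot show a change in total RNA.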
